A study of Mus musculus with 6 samples.

Results

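Methig1, Coch, Ly6h, Vit and Scara3 are 5 genes of 18193 measured by name on expression microarrays of mouse carotid body and adrenal medulla. They were picked because their levels differed most toward carotid body among genes that are seldom studied in this organ. Each is measured by 1 probe set annotated to it alone, 5 of the 45037 probe sets: 1447356_at for Methig1, 1423285_at for Coch, 1422625_at for Ly6h, 1426231_at for Vit and 1427020_at for Scara3. The carotid body is a small chemoreceptor organ on the carotid artery whose glomus cells sense arterial oxygen, and chromaffin cells of the adrenal medulla secrete catecholamines. The samples fall into 3 pools of carotid body, each of 18 organs, and 3 pools of adrenal medulla, each of 10 organs, with every pool taken from 10 mice. All mice were untreated adults of the C57/BL6 strain from Charles River, and the pools of the 2 tissues that share a cohort number, 1 to 3, came from one cohort of animals. A pool holds every cell type of the dissected tissue, so more cells of a type and more RNA per cell cannot be told apart.

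The proteins have different known roles. Methig1 is a readthrough gene that joins Mettl7a2, of a family of membrane-bound methyltransferases, to Higd1c, of the hypoxia-inducible HIG1 domain family whose proteins sit in the inner mitochondrial membrane, and in mouse Higd1c has been reported in glomus cells as a partner of cytochrome oxidase. Coch encodes cochlin, the main secreted matrix protein of the inner ear, and Vit encodes vitrin, a secreted matrix protein with the same domain plan, an LCCL domain followed by von Willebrand factor A (VWA) domains. Ly6h encodes a membrane-anchored protein of the Ly6 family that is known in rodent neurons to restrain nicotinic acetylcholine receptors. Scara3 encodes a class A scavenger receptor relative that was described in human cells as a stress response protein that lowers reactive oxygen species.

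Start-site windows of 300 bases from RefSeq (GRCm38.p6) were at hand for 2 of the 5 genes. Each window holds 250 bases before its own start site and 50 after, and positions are counted from that site. That of Methig1, at chr15:100352950-100353249 on the plus strand, is the same window as that of Mettl7a2, since both genes begin at the same base. It is shown with the window of the paralogue Mettl7a1, at chr15:100304567-100304866 on the plus strand, because the 3 genes of this locus are read by separate probe sets below. Capitals mark the longest run of bases that the pair share, 40 bases at or near the start site of each window. The gene record of Mettl7a1 begins before its window, at 100304145.
Methig1 and Mettl7a2: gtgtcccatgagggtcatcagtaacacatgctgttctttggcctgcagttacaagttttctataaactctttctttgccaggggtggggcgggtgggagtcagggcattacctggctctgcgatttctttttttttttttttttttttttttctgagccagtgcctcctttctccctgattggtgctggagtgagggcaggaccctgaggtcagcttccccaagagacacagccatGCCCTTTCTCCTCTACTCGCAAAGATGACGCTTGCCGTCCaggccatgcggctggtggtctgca
Mettl7a1: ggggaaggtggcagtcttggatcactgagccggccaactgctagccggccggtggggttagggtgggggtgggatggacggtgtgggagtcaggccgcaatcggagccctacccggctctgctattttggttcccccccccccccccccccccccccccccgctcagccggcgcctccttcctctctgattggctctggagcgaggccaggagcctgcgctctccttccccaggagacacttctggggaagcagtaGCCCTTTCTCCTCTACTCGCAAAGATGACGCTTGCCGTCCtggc
The window of Coch lies at chr12:51593091-51593390 on the plus strand, and its GC content was 73.7%, against 51.3% for that of Methig1. The gene record of Coch begins inside this window, at 51593283, before the start site of the window. Capitals in it mark the single match, on the minus strand, to GCGTG.
Coch: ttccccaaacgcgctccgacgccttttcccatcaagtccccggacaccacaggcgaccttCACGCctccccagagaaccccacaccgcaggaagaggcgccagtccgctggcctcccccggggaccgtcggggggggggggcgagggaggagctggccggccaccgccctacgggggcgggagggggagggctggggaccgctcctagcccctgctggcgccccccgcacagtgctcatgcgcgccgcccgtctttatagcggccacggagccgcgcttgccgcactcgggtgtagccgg
GCGTG and ACGTG are the core letters read by hypoxia-inducible factors. On both strands, GCGTG occurred in 32.4% and ACGTG in 19.6% of 32817 such windows of all genes. Neither occurred in the Methig1 window and ACGTG did not occur in the Coch window, which says only that these letters are not there. TATAAA, the letters of a TATA box, occurred on the plus strand of the Methig1 window, at position -190 from the start. On the minus strand of the Coch window it occurred at position 4, after the start. Either strand held it in 13.6% of all windows, and whether these letters act as a TATA box was not tested. It overlapped no other match here.

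Values are log2 intensities as deposited, so a step of 1 is a 2-fold difference, and no detection calls were used here. Tissue identity was checked with known genes: the olfactory receptor gene Olfr78, a glomus cell marker, averaged 11.63 ± 0.39 in carotid body, against 5.48 ± 0.47 in adrenal medulla (SD, n = 3), and chromogranin A, Chga, a protein of secretory granules, averaged 12.30 ± 0.05 in carotid body, against 14.38 ± 0.18 in adrenal medulla (SD, n = 3). Adrenal cortex markers were high in every adrenal medulla pool, and most were also high in carotid body pool 1. Cyp11b2 was not, at 5.01, 4.12 and 4.45 in carotid body pools 1, 2 and 3, against 9.34, 8.56 and 7.99 in adrenal medulla. The cholesterol carrier Star was at 12.06, 3.85 and 3.81 in carotid body pools 1, 2 and 3, against 13.92, 13.95 and 13.52 in adrenal medulla. Xist, the RNA of the inactive X chromosome, was at 10.96, 8.84 and 9.82 in the carotid body pools, against 4.45, 5.60 and 5.02 in those of adrenal medulla, and the labels do not give the sex of the animals. The 3′ over 5′ log2 difference of Gapdh, a measure of RNA integrity, was 1.45, 1.04 and 0.59 in carotid body, against 0.51, 0.13 and 0.61 in adrenal medulla. The part of Xist and of RNA integrity in the differences below was not tested.

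Values below as differences are carotid body minus adrenal medulla. Methig1 had the largest difference toward carotid body of all 18193 genes. It was at 12.04, 12.66 and 12.59 in carotid body pools 1, 2 and 3, against 4.71, 5.61 and 5.45 in adrenal medulla pools 1, 2 and 3. Pool 1 was the lowest in both tissues, and the groups did not overlap. The means were 12.43 ± 0.34 in carotid body, against 5.26 ± 0.48 in adrenal medulla (SD, n = 3), and differed by 7.17 (log2), or 144-fold. Since the members were chosen by this contrast, their differences are descriptions with no test.

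**Figure D1:**
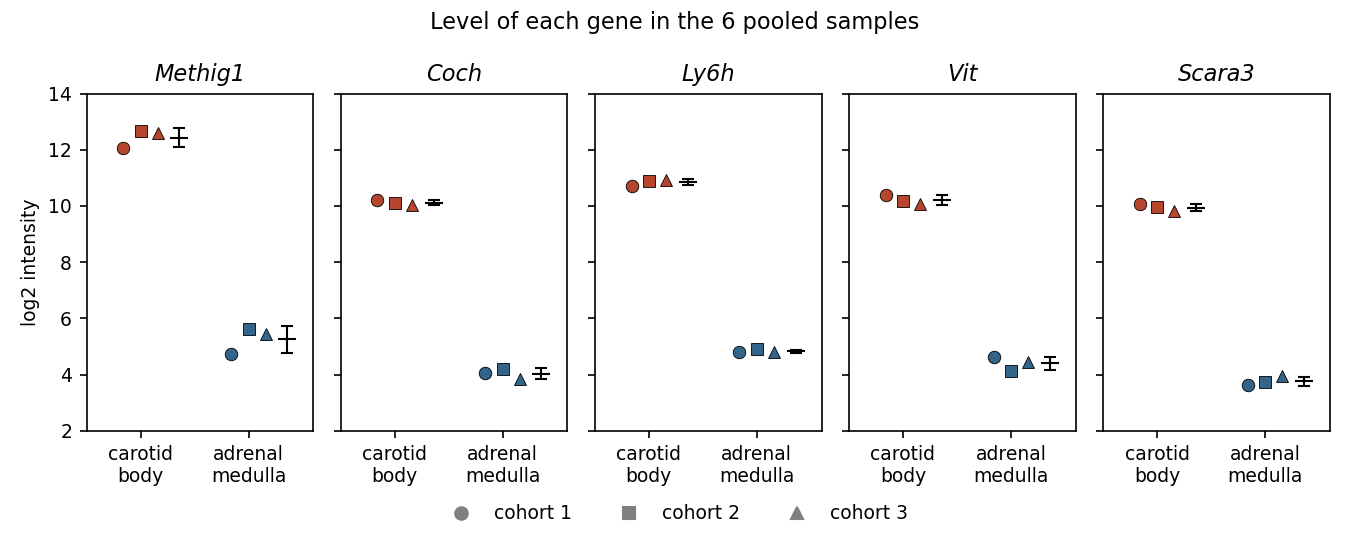
Log2 intensity of each of the 5 genes (y axis) in 3 carotid body pools (red, left) and 3 adrenal medulla pools (blue, right); the symbol shape gives the cohort and the black bar the mean ± SD. Every carotid body pool lies at least 5.46 above every adrenal medulla pool of the same gene.

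The 2 matrix genes with LCCL and VWA domains had similar differences. Coch was at 10.22, 10.10 and 10.02 in the carotid body pools, against 4.05, 4.21 and 3.82 in adrenal medulla. Vit was at 10.40, 10.16 and 10.07 in the carotid body pools, against 4.61, 4.14 and 4.44 in adrenal medulla. In both genes carotid body pool 1 was the highest and pool 3 the lowest of that tissue. Their differences were 6.08 for Coch, 10.11 ± 0.10 in carotid body against 4.03 ± 0.20 in adrenal medulla, and 5.81 for Vit, 10.21 ± 0.17 in carotid body against 4.40 ± 0.24 in adrenal medulla (SD, n = 3).

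The membrane proteins completed the set. Ly6h was at 10.72, 10.90 and 10.93 in the carotid body pools, against 4.82, 4.89 and 4.79 in adrenal medulla, the narrowest spread of the 5 genes in adrenal medulla. Scara3 was at 10.05, 9.96 and 9.82 in the carotid body pools, against 3.64, 3.72 and 3.94 in adrenal medulla. The differences were 6.01 for Ly6h, 10.85 ± 0.11 in carotid body against 4.83 ± 0.05 in adrenal medulla, and 6.18 for Scara3, 9.94 ± 0.12 in carotid body against 3.77 ± 0.16 in adrenal medulla (SD, n = 3). In fold terms the 4 smaller differences ran from 56.2-fold for Vit to 72.3-fold for Scara3. All 5 genes were free of overlap between tissues, as were 17.8% of all genes in that direction, a count that the choice of genes fixes.

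By size of difference the 5 genes ranked 1 (Methig1), 6 (Scara3), 8 (Coch), 9 (Ly6h) and 10 (Vit) among all genes. Vit, the last of them, differed by 5.81, and the next gene below it, the microfibril gene Mfap5, by 5.47. Within cohorts, carotid body minus adrenal medulla was 7.33, 7.05 and 7.13 for Methig1 in cohorts 1, 2 and 3, and for the other 4 genes it lay between 5.63 and 6.42. Scara3 varied most between cohorts, over a range of 0.54, and Ly6h least, over 0.24. Without carotid body pool 1, where most cortex markers were high, the differences were 7.36 for Methig1, 6.03 for Coch, 6.08 for Ly6h, 5.72 for Vit and 6.12 for Scara3.

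Within the carotid body the genes fell into different orders over the pools, which were noticed after the values were seen. Pool 1 was the lowest of the 3 for Methig1 and Ly6h and the highest for Coch, Vit and Scara3. These steps were small: the range over carotid body pools was 0.61 for Methig1, 0.33 for Vit, 0.23 for Scara3, 0.21 for Ly6h and 0.19 for Coch, against a median of 0.36 over all genes. In adrenal medulla the range was 0.89 for Methig1, 0.48 for Vit, 0.39 for Coch, 0.30 for Scara3 and 0.10 for Ly6h, against a median of 0.27. Methig1 had the same order, pool 2 over pool 3 over pool 1, in both tissues. The mean level of the 12 glomus and chromaffin markers had that order too. It was at 11.36, 11.71 and 11.49 in carotid body pools 1, 2 and 3, against 11.58, 12.10 and 12.02 in adrenal medulla. The order was not particular to that list. Ganglion neuron markers had it in both tissues, at 8.62, 9.33 and 8.67 in carotid body, against 7.90, 8.61 and 8.55 in adrenal medulla. So did the fibroblast and matrix list, at 8.47, 8.65 and 8.53 in adrenal medulla, with its carotid body levels given below. Genes of the glomus and chromaffin list did not all follow the order in carotid body. Th, the rate-limiting enzyme of catecholamine synthesis, and Olfr78 were lowest in pool 1, at 11.42 and 11.18. Dbh, which makes noradrenaline, was lowest in pool 3, at 7.86, and Chga in pool 2, at 12.24. The mean level of the fibroblast and matrix list was lowest in carotid body pool 1, at 11.38, 11.60 and 11.51 in pools 1, 2 and 3. Its genes split: Col1a1, Col1a2, Col3a1, Postn and Fn1 were lowest in pool 1, and Lum and Mfap5 in pool 3. Dcn, Pdgfra, Fbln1 and Dpt were highest in pool 1, as were Coch, Vit and Scara3. The chondrocyte, macrophage and lymphocyte, and cortex lists were highest in pool 1, at 5.41, 8.35 and 10.33 in that pool. In pools 2 and 3 they were at 5.21 and 5.16, at 8.23 and 8.23, and at 5.74 and 5.49. Single genes differed from their list. Among chondrocyte genes Acan was highest in pool 2, at 5.04, and Chad in pool 3, at 4.25. Among macrophage and lymphocyte genes Cd68 was lowest in pool 1, at 6.51, and Csf1r and Cd3e were highest in pool 2, at 11.55 and 6.64. With 3 pools a tissue these orders carry no test.

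**Figure D2:**
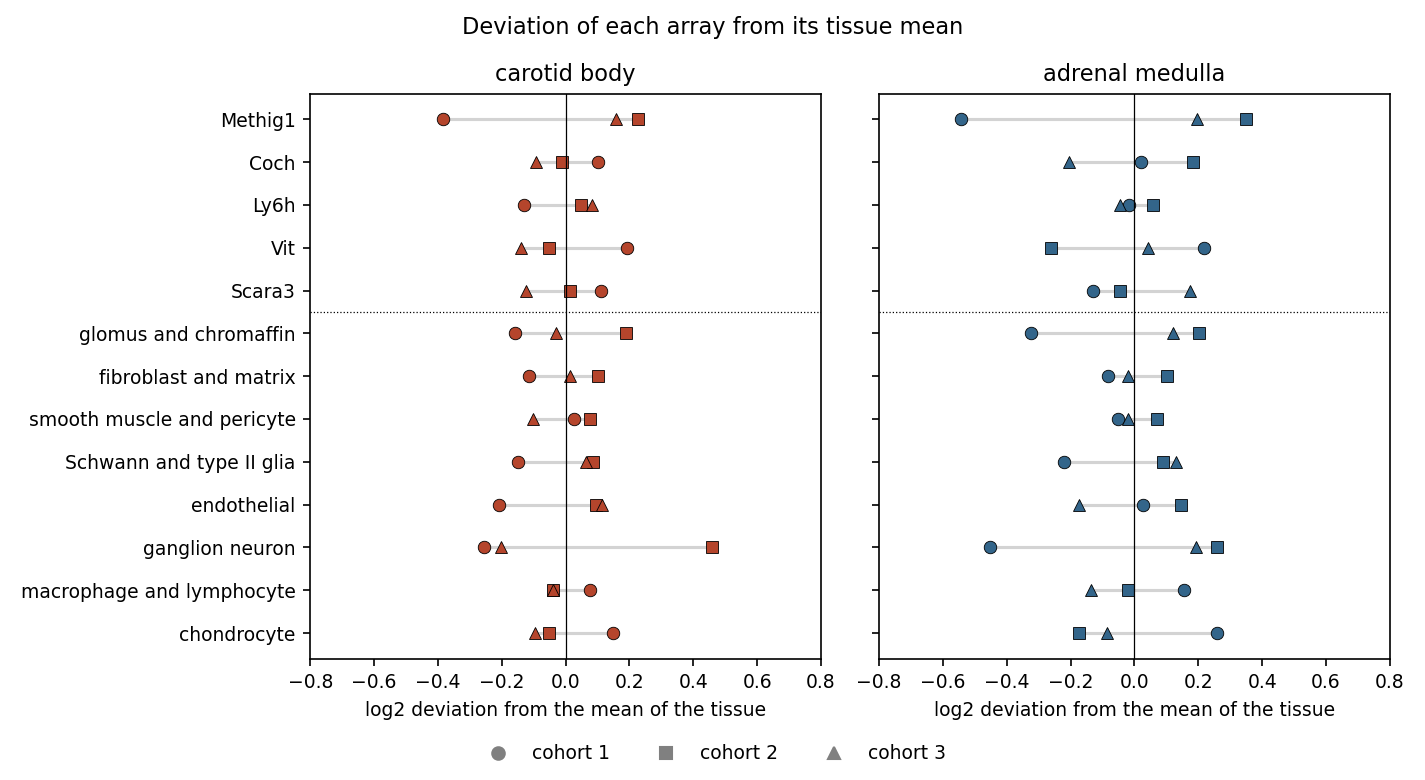
Deviation of each pool from the mean of its tissue (x axis, log2) for the 5 genes and, below the dotted line, for the mean level of 8 marker lists, in carotid body (left, red) and adrenal medulla (right, blue); symbols give the cohort. Methig1 shows the widest spread of the 5 genes in both tissues and is lowest in cohort 1 in both.

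The genes most alike in pattern were sought outside the 5 genes themselves, as the smallest root mean square distance between profiles over the 6 arrays, after each was centred on its own mean. The tissue difference dominates this measure. For Methig1 the nearest of these other genes were Olfr78 at 0.53, the matricellular gene Ccn3 at 0.55 and the secreted Wnt modulator Sfrp2 at 0.57. Scara3 had the closest match among them, Ccn3 at 0.12, then the mesodermal homeobox gene Meox2 at 0.23 and Sfrp2 at 0.33. For Coch they were Ccn3 at 0.23, Meox2 at 0.25 and Sfrp2 at 0.36, and for Ly6h Ccn3 at 0.24, Meox2 at 0.27 and Olfr78 at 0.33. For Vit they were the secreted cytokine-like gene Cytl1 at 0.26, Meox2 at 0.33 and Ccn3 at 0.34. Between the 5 genes, Coch and Ly6h lay 0.15 apart, Ly6h and Scara3 0.19 and Coch and Scara3 0.20. Coch, Ly6h and Vit were thus each nearer to another of the 5 than to any gene outside them. The 5 genes were picked by the same tissue difference, so this closeness is no separate result. Methig1 and Vit were the farthest pair, at 0.84.

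At the Methig1 locus the other probe sets gave smaller differences than that of Methig1. Mettl7a2, which shares its start with Methig1, averaged 9.36 ± 0.23 in carotid body, against 8.89 ± 0.28 in adrenal medulla (SD, n = 3), and differed by 0.48 ± 0.18 (log2, SE) with an adjusted p of 0.104 (limma, Benjamini-Hochberg over all probe sets). The paralogue Mettl7a1 differed by 0.66 ± 0.18 (adjusted p = 0.0298), under 2-fold. A further probe set is annotated jointly to 5 genes, Mettl7a1, Mettl7a2, Mettl7a3, Methig1 and Higd1c, and read 8.05, 7.95 and 8.90 in the carotid body pools, against 7.35, 7.95 and 7.81 in adrenal medulla. Its difference was 0.59, and it cannot be assigned to any of the 5. Higd1c lies within the span of Methig1 in RefSeq and has no probe set of its own here, so the Methig1 reading may hold RNA of either gene, which these data cannot tell apart. The readings of the Mettl7a genes may also mix, which was not tested. The shared 40 bases cannot show it, since they lie near the start sites and the probe sequences were not examined.

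Genes related to the 5 genes by protein family or by function were then tested with limma in the same contrast. A gene was called where its adjusted p lay under 0.05 with at least a 2-fold change. The lists were drawn up with earlier results of these data known, and their genes are together named relatives here. The list of 10 measured nicotinic receptor subunits holds partners of Ly6h, not its family. The scavenger receptor list is not limited to class A, the class of Scara3. Over all 18193 genes, 5.91% were called higher in carotid body, and 6.08% were called higher in the adrenal medulla pools, with a median difference of -0.04 (log2). Of 79 measured relatives in 6 lists, 18 were called toward carotid body and 7 toward adrenal medulla. The LCCL and VWA lists, relatives of Coch and Vit, held 11 of the 18.

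Coch and Vit share their LCCL domain with 4 other measured genes, of which 3 rose in carotid body and 0 fell, with a median of 1.37 (log2); at an unadjusted p under 0.05 (limma) 4 were higher and 0 lower. The secreted Crispld2 averaged 11.08 ± 0.24 in carotid body (SD, n = 3), against 9.39 ± 0.16 in adrenal medulla (SD, n = 3), and differed by 1.69 ± 0.16 (log2, SE; adjusted p = 0.000379). Dcbld2, a neuropilin-like membrane receptor, differed by 1.38 ± 0.17 (adjusted p = 0.0012); differences over its 3 probe sets spanned -0.24 to 1.38, and their mean did not reach 2-fold. Crispld1 differed by 1.36 ± 0.29 (adjusted p = 0.0138), but its adjusted p was 0.0597 without adrenal medulla pool 2, 0.0569 without pool 3 and 0.0824 without cohort 2.

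Of 16 measured extracellular proteins with VWA domains, 8 rose in carotid body and 1 fell, with a median of 0.91. Col12a1, a fibril-associated collagen, averaged 10.01 ± 0.15 in carotid body (SD, n = 3), against 6.05 ± 0.13 in adrenal medulla (SD, n = 3), and differed by 3.96 ± 0.13 (log2, SE; adjusted p = 7.7e-06). Differences over its 4 probe sets spanned 0.11 to 3.96. Vwa1, a basement membrane protein, differed by 3.22 ± 0.13 (adjusted p = 1.73e-05), the endothelial clotting factor Vwf by 2.41 ± 0.19 (adjusted p = 0.000223) and the matrilin Matn4 by 2.39 ± 0.14 (adjusted p = 4.89e-05). The only member that fell, named after its value was seen, was the anchoring fibril collagen Col7a1, at -1.99 ± 0.29 (adjusted p = 0.00291). All 11 of the 11 fibroblast and matrix markers were also higher in these pools, as given below, and their part in the VWA result was not tested.

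Most relatives of Ly6h were not called. Of 27 measured Ly6 and uPAR domain genes, 1 rose in carotid body and 3 fell, with a median of -0.02, or 3.70% and 11.1% of them. Lypd2, the one that rose, averaged 8.48 ± 0.03 in carotid body, against 5.10 ± 0.10 in adrenal medulla (SD, n = 3), and differed by 3.37 ± 0.11 (log2, SE; adjusted p = 7.7e-06). Ly6d, a gene known from early lymphoid cells, was at 6.43, 4.84 and 4.22 in the carotid body pools, against 12.00, 9.40 and 8.84 in adrenal medulla, a difference of -4.92 ± 0.86 (adjusted p = 0.00586). It was highest in pool 1 of both tissues; without carotid body pool 1 the difference was -5.55, without adrenal medulla pool 1 it was -3.96, and without cohort 2 its adjusted p was 0.0839. Ly6m differed by -2.33 ± 0.32 (adjusted p = 0.00202) and Lypd6 by -1.03 ± 0.21 (adjusted p = 0.00998), and leaving out single pools or cohorts took Lypd6 below 2-fold or past the threshold, up to an adjusted p of 0.133.

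Nicotinic receptor subunits, the partners through which Ly6h is known to act in neurons, were mostly not called. Of 10 measured neuronal subunits 0 rose in carotid body (limma; 1 at an unadjusted p under 0.05) and 1 fell, or 2 with the cohort as a block, with a median of -0.19. Chrnb4, a subunit of ganglion receptors, averaged 6.33 ± 0.59 in carotid body (SD, n = 3), against 8.51 ± 0.66 in adrenal medulla (SD, n = 3), and differed by -2.18 ± 0.38 (log2, SE; adjusted p = 0.00596). Its other probe set gave -0.75 and was not called. Chrna7, named after its value was seen because Ly6h is known to bind its product, differed by 0.86 ± 0.18 (adjusted p = 0.012), under 2-fold. The other probe set of Chrna7 gave 0.19.

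Scara3 relatives split by gene. Of 16 measured scavenger receptors 5 rose in carotid body and 1 fell, with a median of 0.13. Scara5, a class A receptor that binds ferritin, averaged 10.82 ± 0.14 in carotid body (SD, n = 3), against 7.97 ± 0.26 in adrenal medulla (SD, n = 3), and differed by 2.85 ± 0.16 (log2, SE; adjusted p = 4.89e-05); its other probe set gave 0.37. Cd163, the macrophage receptor for haemoglobin bound to haptoglobin, differed by 2.72 ± 0.25 (adjusted p = 0.000365) and the engulfment receptor Megf10 by 2.44 ± 0.15 (adjusted p = 6.84e-05). Scarb1, the lipoprotein receptor that feeds cholesterol to steroid-producing cells and is also in the cortex marker list, fell by 3.35 ± 0.61 (adjusted p = 0.00668). It was at 11.22 in carotid body pool 1, against 8.91 and 8.86 in pools 2 and 3, and at 13.34, 13.20 and 12.51 in adrenal medulla; without carotid body pool 1 the difference was -4.13, and without cohort 2 the adjusted p was 0.114.

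Of 6 measured relatives of Methig1, 1 rose and 1 fell, with a median of 0.46. Higd1b, a HIG1 gene known from pericytes, averaged 6.34 ± 0.29 in carotid body (SD, n = 3), against 4.68 ± 0.20 in adrenal medulla (SD, n = 3), and differed by 1.66 ± 0.18 (log2, SE; adjusted p = 0.000703). Higd1a, a hypoxia-induced mitochondrial protein, differed by -1.26 ± 0.23 (adjusted p = 0.00711), with an adjusted p of 0.0676 without cohort 2 and 0.0552 without cohort 3.

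**Figure D3:**
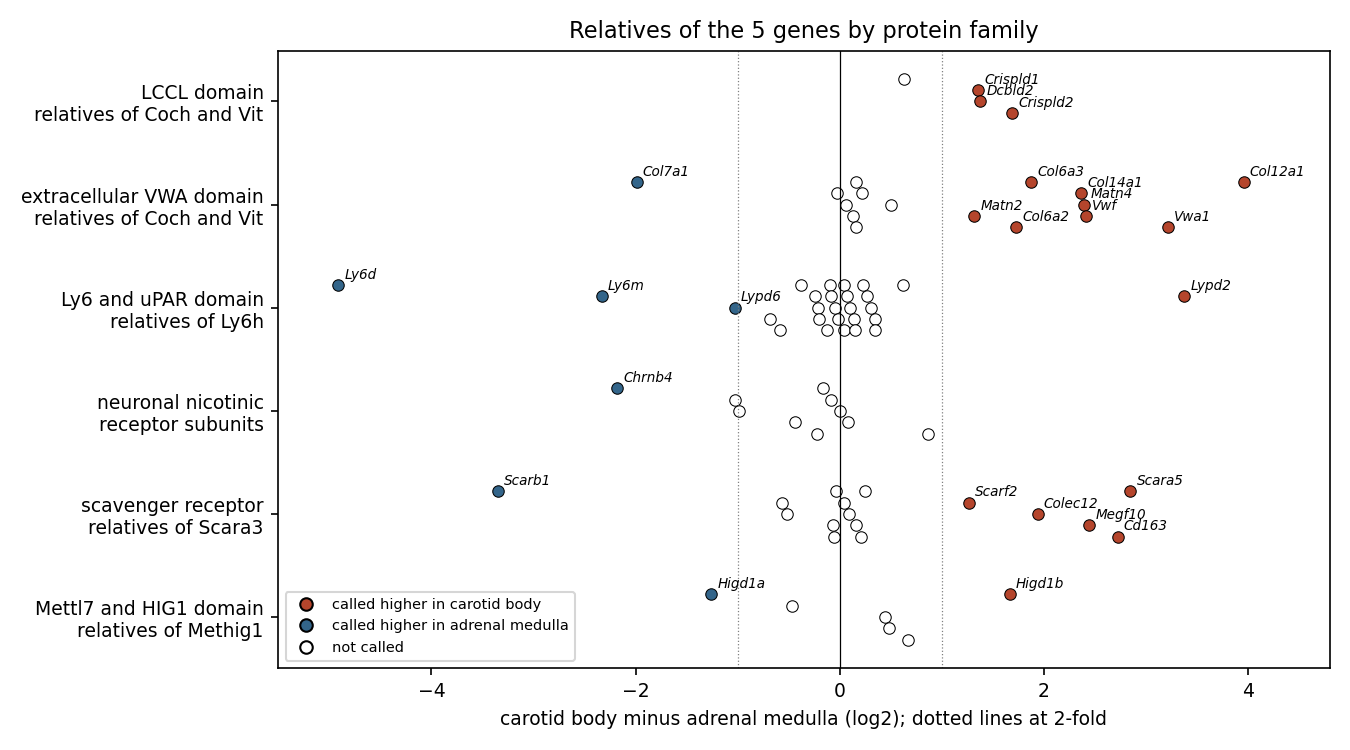
Difference between tissues (x axis, carotid body minus adrenal medulla, log2) for the 79 measured relatives in 6 lists (rows); filled red points were called higher in carotid body, filled blue points higher in adrenal medulla and open points were not called. The LCCL and VWA lists in the top rows have 11 points called higher in carotid body and 1 called lower, while most Ly6 and nicotinic receptor genes lie between the dotted 2-fold lines.

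Most genomic neighbours of the 5 genes were not called. Around these genes, on chromosomes 15 (Methig1 and Ly6h), 12 (Coch), 17 (Vit) and 14 (Scara3), the 3 nearest measured protein-coding genes on each side make 30 neighbours. Not all of them are close: the gap ran from 0 kb for Mettl7a2, which overlaps Methig1, to 2956 kb for Fam98a on one side of Vit. Some neighbours, such as Mettl7a2, are also in the lists of relatives. Of these 1 was called toward carotid body and 1 toward adrenal medulla, 3.33% each, with a median difference of -0.04, the same as over all genes. The called neighbours were the iron transporter gene Slc11a2 beside Methig1, at 1.07 ± 0.29 (log2, SE; adjusted p = 0.0342), and Gulo, of vitamin C synthesis, near Scara3, at -1.11 ± 0.20 (adjusted p = 0.0067). The call of Slc11a2 was lost on centring (adjusted p = 0.0578), without most single pools (up to 0.117) and for the mean of its 4 probe sets (0.305), which ranged from -1.12 to 1.43. That of Gulo was lost without adrenal medulla pool 1, when it fell under 2-fold, and without cohort 2 (0.0858). Ly6h lies in a cluster of Ly6 genes on chromosome 15. Of its 6 measured neighbours, 4 belong to the Ly6 family, and these were named after their values were seen. They differed by 0.34 (Ly6f), -0.23 (Ly6g2), 0.35 (Ly6i) and -0.09 (Gpihbp1), none of them called. They do not stand for all Ly6 genes of that chromosome. Lypd2 (3.37), Ly6d (-4.92) and Ly6m (-2.33), called above, are also on chromosome 15 but not among the nearest measured genes.

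**Figure D4:**
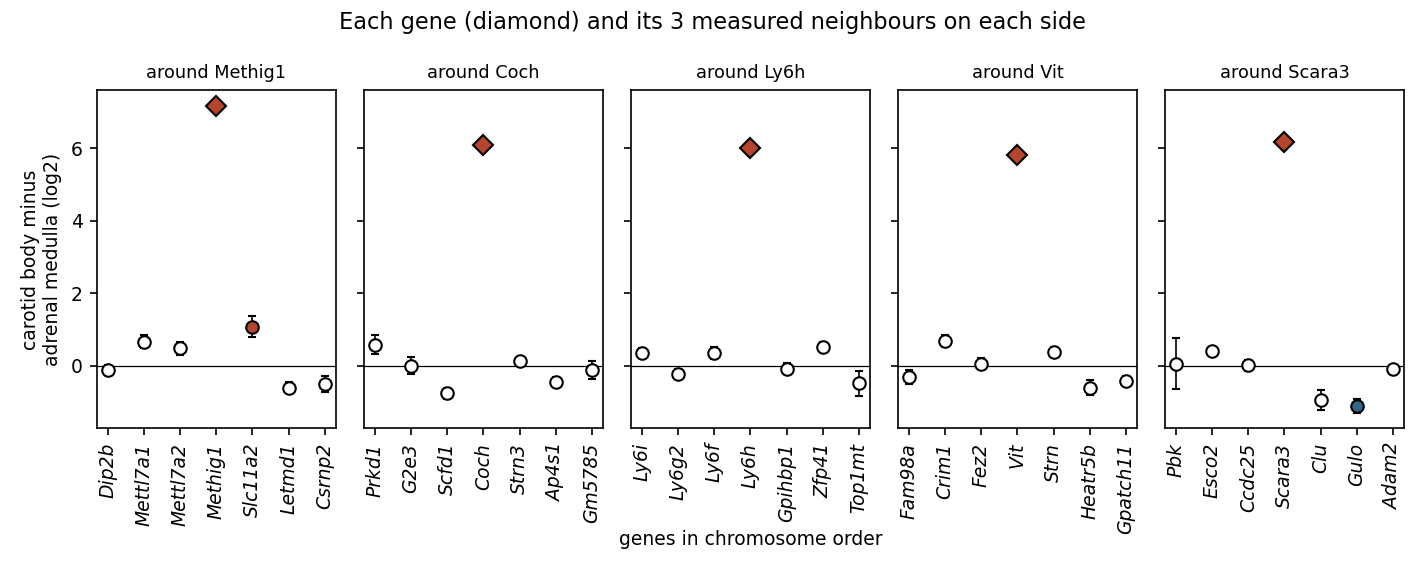
Difference between tissues (y axis, carotid body minus adrenal medulla, log2) for each of the 5 genes (red diamond) and the 3 measured protein-coding genes on each side, in chromosome order; circles are limma estimates ± SE, filled where called. By the brightest probe set of each gene, all 30 neighbours lie between -1.11 and 1.07, against 5.81 to 7.17 for the 5 genes. Other probe sets of the neighbours reach -1.45 (Clu) and 1.83 (Strn3).

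Markers of the cell types that the pools could hold moved with the tissues, and their part in the levels of the 5 genes was not tested. Of 11 fibroblast and matrix markers 11 were higher in carotid body, with a mean list level of 11.38 to 11.60 in carotid body pools, against 8.47 to 8.65 in adrenal medulla, and Mfap5 led at 5.47. Of 9 markers of smooth muscle and pericytes 8 were higher, at a list level of 9.71 to 9.88 in carotid body, against 7.53 to 7.65 in adrenal medulla, led by Myh11 at 3.85. Schwann and type II glia markers had 7 of 8 higher, at 9.53 to 9.77 in carotid body, against 7.52 to 7.87 in adrenal medulla, led by Mbp at 3.39. Endothelial markers had 3 of 8 higher, led by Cldn5 at 3.97, and macrophage and lymphocyte markers 2 of 8, Mrc1 at 1.66 and Csf1r at 1.48. Ganglion neuron markers had 1 higher, Gap43 at 5.27, and 1 lower, Rbfox3 at -2.85, of 9, or 2 higher with the cohort as a block. Glomus and chromaffin markers had 2 of 12 higher, Olfr78 at 6.15 and Rgs5 at 2.36, and 7 lower, led by Dbh at -3.41. Chondrocyte markers had 1 of 5 higher, Comp at 2.88, and 1 lower, Acan at -1.61. Of 5 genes of the inner ear and of follicular dendritic cells, where Coch is known to be expressed, 0 were called in either direction (limma; 1 higher at an unadjusted p under 0.05), with the ear gene Otog at -0.13 (adjusted p = 0.622), Otor at 0.78 (adjusted p = 0.00603) and a list level of 4.07 to 4.15 in carotid body, against 3.90 to 3.97 in adrenal medulla. Cortex markers had 9 of 10 lower in carotid body, at 10.33, 5.74 and 5.49 in carotid body pools 1, 2 and 3, against 11.92 to 12.49 in adrenal medulla; this count lay between 1, without cohort 2, and 10 when single pools or cohorts were left out.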

How the data were processed

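Total RNA of 6 pools was hybridised to Affymetrix arrays after labelling with a 3′ kit, per the labels' protocols. The values were deposited by the authors as log2 intensities, and the submitters' processing notes name Affymetrix Expression Console. For the version and the summarisation method, not given in the sources used here, nothing was assumed. The array values run from 2.70 to 14.97. They were used as deposited. Of 45101 probe sets 64 controls were left out, and 45037 were tested; 34945 carry 1 gene symbol, 932 several and 9160 none in the platform annotation, with symbols updated through RefSeq. Each of 18193 genes was read by its brightest probe set. Tissues were compared with limma 3.58.1 in R 4.3.3 without a block, adjusting p by Benjamini-Hochberg over all probe sets, and the script was tested on simulated data. Only 3 arrays a tissue limit the precision. Replicates are pools of different cohorts. The members and all gene lists were chosen with earlier results of these data known.

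Text names the 5 genes, up to 4 called genes with the largest difference in each list of relatives, neighbours and markers (the 2 brightest where none is called), the 3 nearest patterns of each gene, and tissue checks. Pools that share a cohort number are paired by the series' own statement; their deviations from the tissue means correlated at 0.22, 0.08 and 0.16, against -0.21 to 0.10 for other pairs. Alternatives were quantile normalization, centring on array medians, the cohort as a block, leaving out the dimmest 40% of probe sets, trended robust variances, averaging every probe set of one gene, and leaving out pools or cohorts.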

Additional observations from a re-analysis of the deposited data

How the results depend on the processing

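The 5 differences kept their direction under all 15 alternatives, and leaving out pools or cohorts gave 6.90 to 7.36 for Methig1, 5.98 to 6.18 for Coch, 5.95 to 6.08 for Ly6h, 5.68 to 5.92 for Vit and 6.06 to 6.33 for Scara3. Of 375 alternative values of the differences and counts 340 stayed within the spread or within 1.5 times the count. Counts cannot reverse, and the 5 differences were picked for their size, so their kept direction is no separate support. Centring the arrays on their medians moved the median of all genes by -0.115 (log2) and gave 5.90 for Ly6h; of called genes 40.2% were then higher in carotid body, against 49.3% as deposited. Nicotinic subunits higher in adrenal medulla numbered 2 with quantile normalization, the cohort as a replicate block, the dim filter or trended robust variances, 3 after centring and 1 to 3 with pools left out; those higher in carotid body numbered 0 to 1. Neighbours higher in carotid body numbered 0 after centring or with the mean of probe sets and 0 to 1 with pools left out; those higher in adrenal medulla numbered 2 after centring, 0 with the dim filter and 0 to 2. With pools or cohorts left out, those higher in adrenal medulla numbered 1 to 3 in the Ly6 list, 0 to 1 in the scavenger list, 0 to 1 in the Mettl7 and HIG1 list, 3 to 9 of all relatives and 7 to 19 of all markers (11 without cohort 3), and 2.92% to 6.98% of all genes, lowest without cohort 2; the cause was not tested. Cortex markers lower in carotid body numbered 3 with trended robust variances. The cohort block changed no other count by over 1.5 times except ganglion neuron markers higher in carotid body, 2 with it. Fewer arrays did not always go with fewer calls. Leaving out cohort 1 gave 1125 genes called toward carotid body and 1219 toward adrenal medulla, against 1075 and 1107 as deposited. These counts were 1033 and 1180 without cohort 3, and 807 and 532 without cohort 2. The part of the smaller sample in them was not tested. How far the low adrenal medulla values lie above background was not tested.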

Other observations

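Probe sets of single neighbours did not all read alike, as was seen after their values were known. Strn3, the gene next to Coch, has 3 probe sets that differed by 0.13 (limma adjusted p = 0.532), -0.19 (adjusted p = 0.352) and 1.83 ± 0.24 (SE; adjusted p = 0.00173). The last was at 7.89, 7.66 and 6.91 in carotid body pools 1, 2 and 3, against 5.58, 5.67 and 5.73 in adrenal medulla. Clu, next to Scara3, has 4 probe sets whose differences spanned -1.45 to -0.58, of which 1 was called lower in carotid body. Slc11a2, next to Methig1, has 4 probe sets that differed by -1.12 (adjusted p = 0.00133), 1.07 (adjusted p = 0.0342), 1.43 (adjusted p = 0.00136) and -0.33 (adjusted p = 0.309), so that 2 of them were higher and 1 lower in carotid body by the call rule.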
